A study of Mus musculus with 25 samples.

Results

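G0s2 and 9 other genes of fat storage and breakdown were followed in mouse livers inflamed with concanavalin A (ConA, a lectin that provokes T cell hepatitis) and treated with the DP1 receptor agonist BW245C, which acts in place of prostaglandin D2. The group was built around G0s2, which was selected on its low signal at 3 hr after ConA and its return by 24 hr, and was filled with Pnpla2, Pnpla3, Pnpla5, Plin2, Plin4, Plin5, Cidec, Cideb and Lpin1. The members were found through the RefSeq accession of their probes, and all 10 were among the 15104 genes tested. They had 14 probes in all. The measured values that chose them were those of the ConA groups against untreated livers and of 24 hr against 3 hr, so these are described with no test. The tests are those of BW245C against vehicle, which the rule for the choice did not name. They share the ConA arrays, and the members were chosen with earlier results of these data known.

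Fat is stored in liver cells as triglyceride in lipid droplets. Adipose triglyceride lipase, encoded by Pnpla2, cuts the first fatty acid from triglyceride, and the small protein encoded by G0s2 binds this lipase and inhibits it. Perilipins (Plin genes) coat the droplet and set the access of lipases, CIDE proteins (Cidec, Cideb) join droplets together or load fat into secreted lipoproteins, and lipin 1 (Lpin1) makes the diacylglycerol from which triglyceride is built.

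Each of the 25 arrays held liver RNA of 1 female C57BL/6 mouse (strain label C57BL/6NcrSlc), with 5 mice in each group. The groups were ConA + BW245C at 3 hr, ConA + vehicle at 3 hr, ConA + BW245C at 24 hr, ConA + vehicle at 24 hr, and untreated mice. ConA was given at 10 mg/kg, and BW245C at 1 mg/kg or its vehicle was injected into the peritoneum 15 minutes later. The untreated mice received neither injection, so no group shows vehicle without ConA. All values are single-colour Agilent signals on a log2 scale on which 0 is the 75th percentile of the array, and a value is compared only with other values of the same probe. Between 52.2% and 61.6% of the spots of an array were well above background, and precision is limited by how many arrays there were. Values after ± are SD over 5 mice beside a mean, and SE from limma beside a difference. A gene was called at an adjusted p under 0.05 (limma, Benjamini-Hochberg over 15104 genes).

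Groups were spread unevenly over 5 slides. At 3 hr the 5 BW245C arrays shared slide 3 with 2 of the vehicle arrays, at 24 hr 3 BW245C and 4 vehicle arrays shared slide 4, and 4 of the untreated arrays lay on slide 1. No slide held untreated arrays with those of ConA + BW245C at 3 hr or of ConA + vehicle at 24 hr, and for these pairs slide and treatment can be separated only through the other groups. Beside the results stand the values of a fit with slide as a block term and, for slides shared by both groups, those inside one slide. All 8 hepatocyte markers were measured. Of 8 adipocyte markers Adipoq was well above background on 1 of 25 arrays, Retn and Cfd on 2, and Lep and Plin1 on 0. Fabp4, Lpl and Cidea were measured, and Cidea was well above background on no untreated array.

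Among the members well above background on all arrays, G0s2 had the largest difference at 3 hr after ConA, and it was back near the untreated signal at 24 hr. In ConA + BW245C livers at 3 hr its log2 signal was -3.01, -2.88, -2.93, -3.69 and -2.02, and in ConA + vehicle livers at 3 hr it was -2.96, -3.47, -3.11, -3.79 and -3.02, against 3.00, 3.23, 3.27, 3.05 and 2.22 in untreated livers. Every treated liver lay more than 4 log2 units below every untreated liver. The difference from untreated livers was -5.86 ± 0.28 with BW245C and -6.22 ± 0.28 with vehicle, the second a 74.7-fold lower signal. Under the slide block it was -5.45 with BW245C and -6.12 with vehicle, and ConA + vehicle against untreated gave -6.00 within slide 1 and -6.44 within slide 2. After normexp background correction, which draws dim signals together, the vehicle difference was -4.73.

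At 24 hr G0s2 stood at 2.89, 2.41, 3.56, 1.89 and 2.98 in ConA + BW245C livers and at 2.21, 2.52, 2.62, 2.21 and 2.74 in ConA + vehicle livers. These ranges overlapped the untreated range. The difference from untreated livers was -0.21 ± 0.28 with BW245C and -0.49 ± 0.28 with vehicle, and the vehicle value was 0.02 with the slide as a block. Set against 3 hr, the 24 hr livers were higher by 5.65 ± 0.28 on the log2 scale with BW245C and by 5.73 ± 0.28 with vehicle. In bulk liver, fewer cells of a type and less RNA per cell cannot be told apart. The summed signal of the 8 hepatocyte markers, in units of the array's 75th percentile, was 6403 to 7542 in ConA + BW245C livers at 3 hr and 6806 to 8334 in ConA + vehicle livers at 3 hr, against 5762 to 6915 in untreated livers. With vehicle at 3 hr against untreated livers 5 of 8 hepatocyte markers rose (median log2 0.23) and 5 of 6 neutrophil markers rose (median 5.56). Under the slide block, where Trf was left out of the count, 3 of 7 hepatocyte markers were called. In the same contrast 4 of 7 stellate cell markers fell (median -0.33), 4 of 7 Kupffer cell markers fell (median -0.71), none of the 4 called under the slide block, and 1 of 5 cholangiocyte markers rose and 1 fell. The part of these cells in the 3 hr values was not tested.

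The 250 bases before the start of G0s2 are shown because this gene leads the pattern (RefSeq promoter table, GRCm38.p6, chr1:193273189-193273438, minus strand, written 5′ to 3′). They held none of the 4 motifs searched, which were a nuclear receptor half-site (AGGTCA), an E-box (CACGTG), the core of a cAMP element (TGACGT) and a C/EBP site (TTGCGCAA), each on both strands. Their GC content was 67.2%, against a median of 52.4% over all promoters of the table.
G0s2: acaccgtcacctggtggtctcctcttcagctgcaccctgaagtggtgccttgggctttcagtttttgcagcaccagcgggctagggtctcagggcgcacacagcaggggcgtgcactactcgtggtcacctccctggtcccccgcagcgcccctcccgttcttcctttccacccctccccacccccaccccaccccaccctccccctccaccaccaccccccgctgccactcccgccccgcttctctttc

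**Figure D1:**
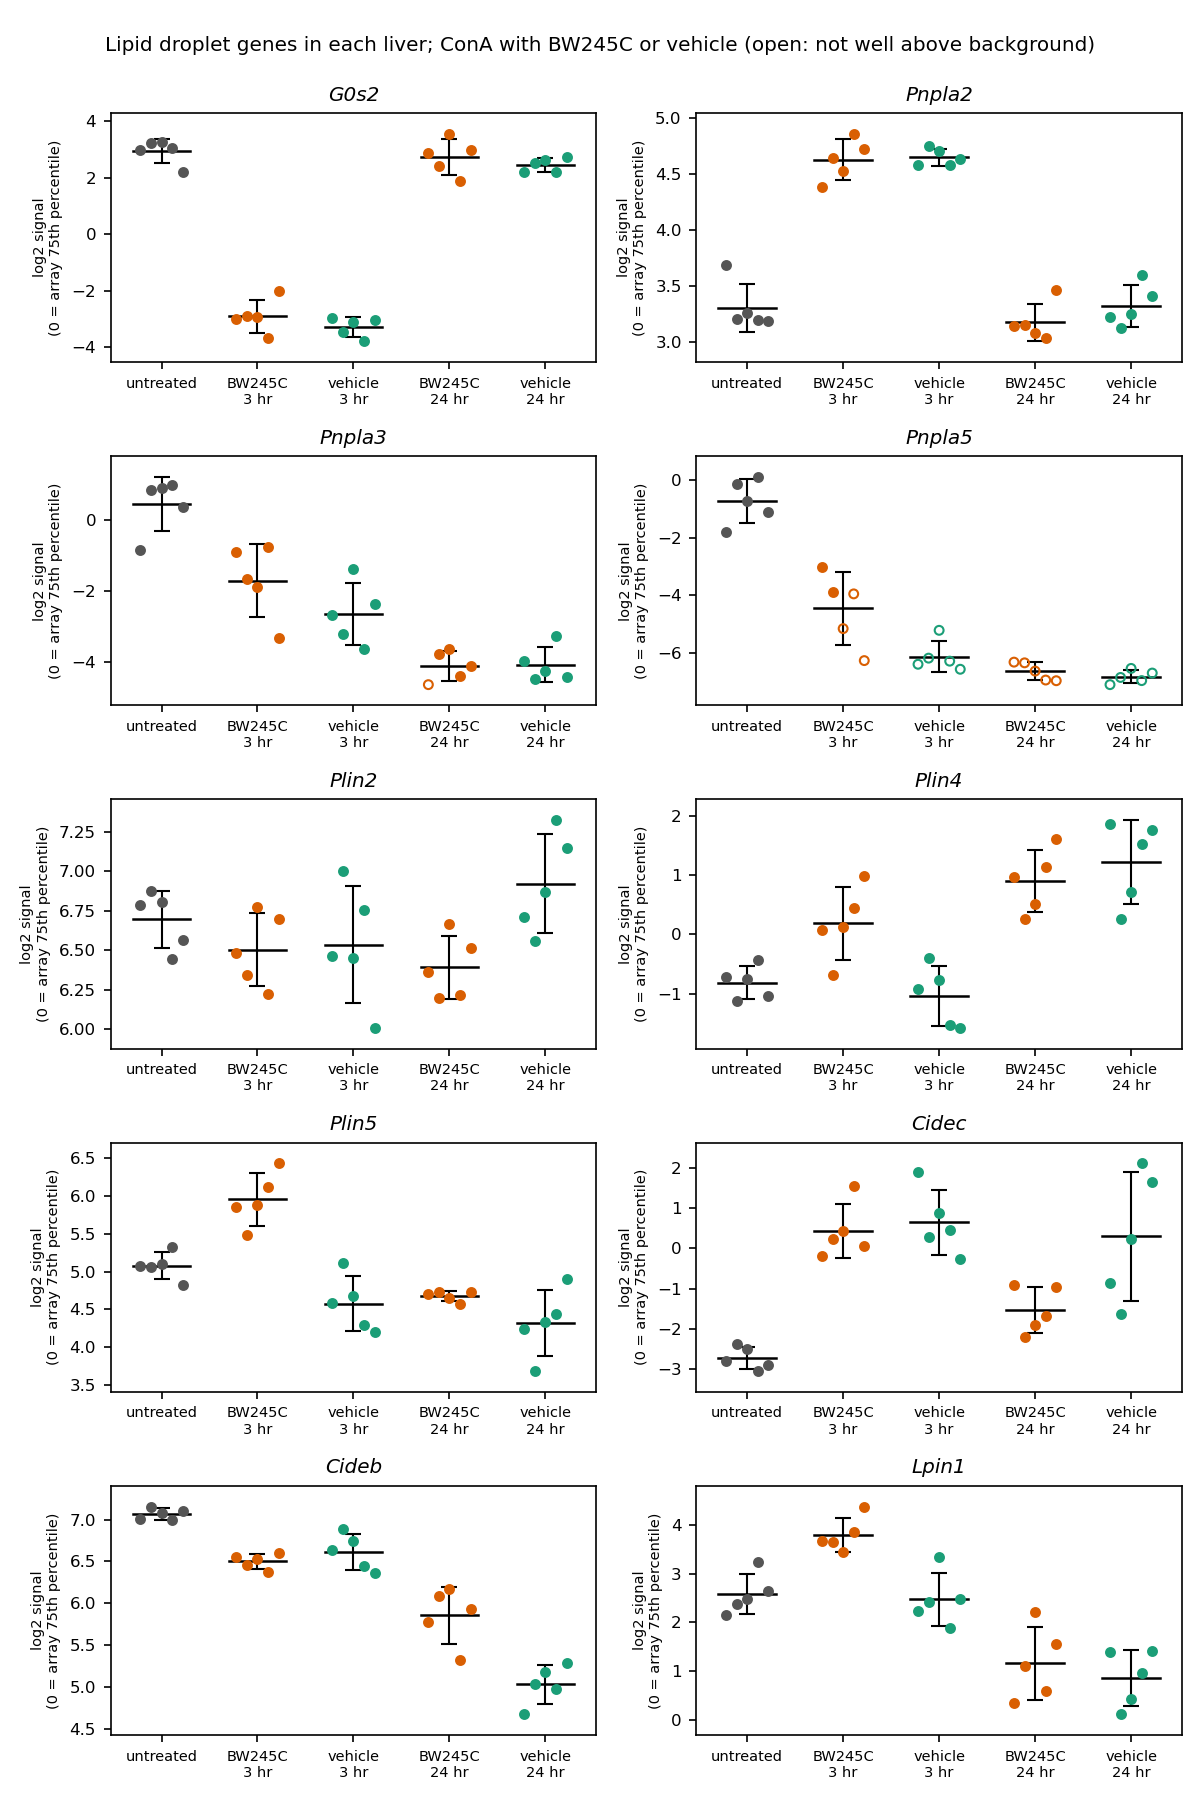
Log2 signal of the 10 genes in each of 25 livers (0 is the array's 75th percentile), with untreated livers and the ConA groups at 3 and 24 hr along the horizontal axis. Points are mice, open where the probe was not well above background, and lines with bars are means and SD of 5 mice. G0s2 lies between -3.79 and -2.02 in all 10 livers at 3 hr and between 1.89 and 3.56 in the others, and Pnpla2 runs the other way.

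Pnpla2, whose lipase G0s2 inhibits, was higher at 3 hr after ConA, and at 24 hr it overlapped the untreated range on the scale used here. Its log2 signal was 4.38, 4.64, 4.53, 4.86 and 4.73 in ConA + BW245C livers at 3 hr and 4.59, 4.75, 4.71, 4.58 and 4.63 in ConA + vehicle livers, against 3.69, 3.21, 3.26, 3.20 and 3.19 in untreated livers. Neither 3 hr group overlapped the untreated one. The difference from untreated livers was 1.32 ± 0.11 with BW245C and 1.34 ± 0.11 with vehicle, a 2.50-fold and a 2.53-fold higher signal. Within slides 1 and 2 the vehicle difference was 1.37 and 1.46. At 24 hr the differences were -0.13 ± 0.11 with BW245C and 0.01 ± 0.11 with vehicle, and both ranges overlapped the untreated range. These 24 hr values depended on the normalization. The vehicle difference was 0.27 after normexp, 0.32 after quantile normalization and 0.36 in the authors' series matrix, where that with BW245C was 0.10. At 3 hr the inhibitor's transcript was low and that of its lipase was high in the same 10 livers. Other regulators of this lipase did not share the G0s2 pattern. Hilpda, a hypoxia-induced inhibitor of the same lipase, rose 6.03-fold in ConA + vehicle livers at 3 hr against untreated livers (log2 2.59 ± 0.37, adjusted p = 1.84e-06) and 17.5-fold at 24 hr (log2 4.13 ± 0.37, adjusted p = 9.46e-10). Abhd5, the co-activator of the Pnpla2 lipase, named here after its values were seen, had a log2 difference of -0.19 ± 0.09 at 3 hr (adjusted p = 0.0644) and rose by 0.74 ± 0.09 at 24 hr (adjusted p = 1.29e-07).

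Pnpla3 and Pnpla5, relatives of Pnpla2 that are induced by feeding and lipogenic signals in mouse liver, were lower at both times. They lie near each other on chromosome 15 with 2 annotated genes between them, Gm33432 and Gm33530. The log2 signal of Pnpla3 was -0.90, -1.68, -1.89, -0.78 and -3.33 in ConA + BW245C livers at 3 hr and -2.69, -3.24, -1.39, -3.65 and -2.37 in ConA + vehicle livers at 3 hr, against -0.87, 0.83, 0.88, 0.98 and 0.35 in untreated livers. At 24 hr it was -4.65, -3.79, -3.64, -4.41 and -4.14 with BW245C and -3.98, -4.48, -4.26, -3.28 and -4.45 with vehicle. Only the BW245C group at 3 hr overlapped the untreated range, since untreated replicate 1 was low. The difference from untreated livers was -2.15 ± 0.45 with BW245C and -3.10 ± 0.45 with vehicle at 3 hr, and -4.56 ± 0.45 with BW245C and -4.53 ± 0.45 with vehicle at 24 hr. With the slide as a block the 3 hr value with BW245C was -1.36, and within slide 1 that with vehicle was -1.72. A second probe of Pnpla3 was well above background in all 5 livers with BW245C at 3 hr, where it differed from untreated livers by -4.27, and in none with vehicle, so no difference is given there. After normexp the vehicle values of the main probe were -2.01 at 3 hr and -2.58 at 24 hr.

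Pnpla5 was well above background in all 5 untreated livers, where its log2 signal was -1.80, -0.12, -0.72, 0.11 and -1.11. It was well above background in 2 of 5 livers of ConA + BW245C at 3 hr and in none of the other ConA livers, so folds are lower bounds, the bright group's mean over the dim group's mean after dim values were raised to the lowest signal well above background on their array. On this measure it was at least 12.9-fold lower in ConA + vehicle livers at 3 hr than in untreated livers. At 24 hr it was at least 15.4-fold lower with BW245C and at least 16.8-fold lower with vehicle. The measured log2 differences from untreated livers were -3.73 ± 0.43 with BW245C and -5.40 ± 0.43 with vehicle at 3 hr, and after normexp they were -1.65 and -1.93.

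Of all promoters of the same length in the table (32851), 6.47% hold the cAMP core and 6.02% the E-box on either strand. Over the 12 promoter entries of the 10 genes each of these motifs was found in 1 entry, the cAMP core in that of Pnpla3 and the E-box in that of Pnpla5. At Pnpla3 the core is part of the palindrome TGACGTCA, which was looked for after the members had been searched and lies in 1.55% of all promoters. The promoters of these neighbours are shown because both genes were low after ConA (GRCm38.p6, chr15:84167566-84167815, plus strand, and chr15:84123176-84123425, minus strand, capitals marking the match).
Pnpla3: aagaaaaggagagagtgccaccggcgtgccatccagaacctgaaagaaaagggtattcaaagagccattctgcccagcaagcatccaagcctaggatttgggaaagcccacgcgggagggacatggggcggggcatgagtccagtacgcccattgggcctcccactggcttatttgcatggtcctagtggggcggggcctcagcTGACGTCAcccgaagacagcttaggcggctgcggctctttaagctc
Pnpla5: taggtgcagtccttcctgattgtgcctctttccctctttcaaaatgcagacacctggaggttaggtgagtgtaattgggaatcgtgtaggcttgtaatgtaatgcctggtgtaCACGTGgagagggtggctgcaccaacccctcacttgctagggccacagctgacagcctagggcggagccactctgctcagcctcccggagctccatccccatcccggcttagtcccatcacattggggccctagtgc
A match is a string of letters in this window and does not show that a factor binds there.

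The perilipins parted from each other. Plin2, the main droplet coat of hepatocytes, overlapped the untreated range at 3 hr, with log2 signals of 6.49, 6.34, 6.77, 6.23 and 6.70 in ConA + BW245C livers and 6.46, 7.0, 6.45, 6.75 and 6.01 in ConA + vehicle livers, against 6.79, 6.88, 6.80, 6.45 and 6.57 in untreated livers. At 24 hr it was 6.36, 6.20, 6.67, 6.22 and 6.52 with BW245C and 6.71, 6.56, 6.87, 7.32 and 7.15 with vehicle. Both 24 hr groups overlapped the untreated range, and their differences from it were -0.30 ± 0.17 with BW245C and 0.23 ± 0.17 with vehicle. These values depended on the normalization. The BW245C difference was -0.04 after quantile normalization and -0.07 in the authors' series matrix. The vehicle difference was 0.60 and 0.57 in these settings.

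Plin4, a perilipin of small new droplets best known from fat cells, was higher late. Its log2 signal at 24 hr was 0.97, 0.27, 0.52, 1.13 and 1.61 in ConA + BW245C livers and 1.86, 0.25, 0.72, 1.53 and 1.75 in ConA + vehicle livers, against -0.71, -1.12, -0.74, -0.44 and -1.04 in untreated livers. Every 24 hr liver was above every untreated liver, by 1.71 ± 0.33 on average with BW245C (3.27-fold) and 2.03 ± 0.33 with vehicle (4.09-fold). The summed signal of the 3 measured adipocyte markers is given in units of the array's 75th percentile. At 24 hr it was 12.3 to 22.3 with BW245C and 14.7 to 22.4 with vehicle, against 6.97 to 7.97 in untreated livers. With vehicle Fabp4 was 3.06-fold (adjusted p = 1.56e-06) and Cidea at least 4.42-fold higher, while Lpl was not called (log2 0.23 ± 0.27, adjusted p = 0.468). The rest of the 8 listed adipocyte markers were above background on too few arrays to be tested. The part of fat cells in the Plin4 values was not tested. At 3 hr Plin4 was 0.08, -0.69, 0.12, 0.44 and 0.99 in ConA + BW245C livers and -0.91, -0.39, -0.77, -1.52 and -1.57 in ConA + vehicle livers. Only the vehicle group stayed close to untreated livers, with a difference of -0.22 ± 0.33 that was 0.07 under the slide block, while that with BW245C was 1.00 ± 0.33 and 1.54 with the block.

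Plin5, the perilipin that ties droplets to mitochondria in tissues that burn fat, is the next gene to Plin4 on chromosome 17, but its pattern was another one. Its log2 signal at 3 hr was 5.85, 5.48, 5.88, 6.12 and 6.43 in ConA + BW245C livers and 4.59, 5.12, 4.68, 4.29 and 4.20 in ConA + vehicle livers, against 5.08, 5.06, 5.10, 5.33 and 4.82 in untreated livers. The untreated values lay below all those with BW245C, by 0.88 ± 0.19, and above 4 of the 5 with vehicle, whose difference was -0.50 ± 0.19. At 24 hr Plin5 was 4.71, 4.73, 4.65, 4.57 and 4.74 with BW245C and 4.24, 3.69, 4.33, 4.44 and 4.91 with vehicle. The difference from untreated livers was -0.40 ± 0.19 with BW245C, with no overlap, and -0.75 ± 0.19 with vehicle, where 1 liver overlapped. After quantile normalization it was -0.105 with BW245C and -0.33 with vehicle, and in the series matrix -0.17 and -0.41.

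The 2 CIDE genes lay on opposite sides of the untreated signal after ConA. Cidec, which fuses droplets and rises in fatty liver, had log2 signals of -0.19, 0.24, 0.43, 1.54 and 0.06 in ConA + BW245C livers at 3 hr and 1.88, 0.27, 0.88, 0.45 and -0.25 in ConA + vehicle livers, against -2.78, -2.36, -2.50, -3.04 and -2.89 in untreated livers. All 10 livers at 3 hr were above all untreated ones, by 3.13 ± 0.53 with BW245C (8.77-fold) and 3.36 ± 0.53 with vehicle (10.3-fold). At 24 hr it was -0.91, -2.20, -1.90, -1.68 and -0.95 with BW245C and -0.87, -1.63, 0.23, 2.10 and 1.65 with vehicle, again with no overlap with untreated livers. The 24 hr difference was 1.19 ± 0.53 with BW245C, which was 0.51 under the slide block and 0.46 within slide 2, and 3.01 ± 0.53 with vehicle. After normexp the 3 hr vehicle difference was 2.23. A second Cidec probe was also higher than in untreated livers in every ConA group, by 1.87 to 2.68.

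Cideb, which loads fat into very-low-density lipoprotein in hepatocytes, was lower in every ConA group, and most at 24 hr. Its log2 signal at 24 hr was 5.77, 6.09, 6.17, 5.32 and 5.93 in ConA + BW245C livers and 4.68, 5.04, 5.18, 4.97 and 5.29 in ConA + vehicle livers, against 7.0, 7.15, 7.08, 6.99 and 7.10 in untreated livers. The difference from untreated livers was -1.21 ± 0.13 with BW245C (2.31-fold lower) and -2.03 ± 0.13 with vehicle (4.09-fold lower), with no overlap. Its size depended on the normalization. With BW245C it was -0.92 after quantile normalization and -0.93 after normexp. With vehicle it was -1.59 and -1.61 in these settings and -1.69 in the series matrix. At 3 hr it was -0.56 ± 0.13 with BW245C and -0.45 ± 0.13 with vehicle, also with no overlap, and the BW245C value was -0.13 with the slide as a block. A second Cideb probe gave -1.19 with BW245C and -2.03 with vehicle at 24 hr. The hepatocyte marker sum at 24 hr, in units of the array's 75th percentile, was 4487 to 5632 with BW245C and 3976 to 5150 with vehicle, below the untreated range given above, and its part in the Cideb values was not tested.

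Lpin1, whose product also acts in the nucleus as a co-activator of fatty acid oxidation genes, was high in a single group. Its log2 signal at 3 hr was 3.67, 3.64, 3.43, 3.84 and 4.37 in ConA + BW245C livers and 2.23, 2.42, 3.35, 1.87 and 2.47 in ConA + vehicle livers, against 2.15, 2.37, 2.49, 3.24 and 2.64 in untreated livers. All 5 livers with BW245C were above the other 10. At 24 hr it was 0.36, 1.10, 2.20, 0.59 and 1.56 with BW245C and 1.40, 0.12, 0.43, 0.96 and 1.41 with vehicle, and the difference from untreated livers was -1.42 ± 0.33 with BW245C, where 1 liver overlapped, and -1.72 ± 0.33 with vehicle, with no overlap. These late values depended on the slide. Under the slide block they were -0.08 with BW245C and -0.13 with vehicle, and on slide 2 the 1 BW245C liver differed by -0.17 from the 1 untreated liver. A second, dimmer Lpin1 probe differed from untreated livers at 3 hr by 1.21 with BW245C and -1.18 with vehicle. Both groups overlapped the untreated range on this probe. At 24 hr it was well above background in 3 of 5 livers with BW245C and in none with vehicle, so no difference between them is given.

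Across the group, the arrays of 7 members did not overlap between ConA + BW245C at 3 hr and untreated livers (4 higher, 3 lower), against 60.1% of all genes, and those of 6 members between ConA + vehicle at 3 hr and untreated livers (2 higher, 4 lower), against 47.4%. At 24 hr 6 members did not overlap the untreated arrays with BW245C, against 43.5%, and 6 with vehicle, against 64.0%, with 2 higher and 4 lower in each. Between 24 and 3 hr the count was 8 members with BW245C (1 higher, 7 lower), against 52.1%, and 5 with vehicle (2 higher, 3 lower), against 52.3%. Since the members were picked on these contrasts, nothing is read from the counts or from the size of the differences. With vehicle the median size of the difference from untreated livers was 0.92 over the members and 0.48 over all genes at 3 hr. At 24 hr with vehicle it was 1.87 over the members and 0.57 over all genes. In the authors' series matrix, each array is multiplied by its own factor, and the median log2 difference of all genes between ConA + vehicle at 24 hr and untreated livers is 0.26 there, against -0.08 on the scale used here. The Pnpla2 difference between 24 and 3 hr with vehicle was -1.33 here and -0.88 in the series matrix, where the median of all genes was 0.42.

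The comparison of BW245C with vehicle after ConA asked whether the DP1 agonist changed these genes. At 3 hr Plin5, Lpin1 and Plin4 rose, Pnpla5 passed the test on signals mostly near background, and G0s2 and Pnpla2 were not shown to differ. Plin5 was 2.60-fold higher with BW245C (log2 1.38 ± 0.19, adjusted p = 2.41e-05), with no overlap between the groups, and the log2 difference was 1.64 under the slide block and 1.71 within slide 3. Lpin1 was 2.50-fold higher (log2 1.32 ± 0.33, adjusted p = 0.00494), again with no overlap, and the log2 difference was 1.70 with the block and 1.62 within slide 3. Its second probe, well above background in 3 of 5 vehicle livers, differed by 2.39 in the same direction. Plin4 was 2.33-fold higher (log2 1.22 ± 0.33, adjusted p = 0.00818), with 4 of 5 BW245C livers above every vehicle liver and log2 differences of 1.47 with the block and 1.74 within slide 3. Pnpla5 gave 1.67 ± 0.43 (adjusted p = 0.00666), with 4 of 5 BW245C livers above every vehicle liver at -3.02, -3.89, -5.15, -3.95 and -6.26, against -6.39, -6.18, -5.21, -6.28 and -6.57 with vehicle. Pnpla5 was well above background on 2 of 5 BW245C arrays and no vehicle array, and with dim vehicle values raised to the lowest signal well above background the log2 difference was -0.04, so no fold is given. Its call was lost after normexp (log2 0.28, adjusted p = 0.233) and when only the groups compared were fitted (adjusted p = 0.0569), and over all 20 alternatives its adjusted p was 0.000359 to 0.233.

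The other 6 members were not called at 3 hr. G0s2 differed by 0.37 ± 0.28 (95% interval -0.22 to 0.95, adjusted p = 0.343), with 3 of 5 BW245C livers above every vehicle liver. Under the slide block the G0s2 difference was 0.67 (adjusted p = 0.241), and within slide 3 it was 0.50. Pnpla2 differed by -0.02 ± 0.11 (interval -0.25 to 0.21) and Plin2 by -0.03 ± 0.17 (interval -0.38 to 0.31). Pnpla3 differed by 0.95 ± 0.45 (interval 0.03 to 1.87, adjusted p = 0.111). This value was called with the mean of its probes (1.22, adjusted p = 0.0217), without ConA + vehicle replicate 3 (1.27, adjusted p = 0.0417) and without ConA + BW245C replicate 5 (1.35, adjusted p = 0.0221), and over 20 alternatives the adjusted p was 0.0217 to 0.255. The second Pnpla3 probe was well above background in all 5 livers with BW245C, at -3.00, -3.36, -3.42, -3.29 and -3.56, and in none with vehicle. Cidec differed by -0.23 ± 0.53 and Cideb by -0.11 ± 0.13, and under the slide block both were above 0, at 0.34 and 0.17. In all 4 of 10 members were called, all higher and Pnpla5 on signals mostly near background, where 28.6% of all genes were called, 11.8% higher and 16.9% lower. Under the slide block these 4 were called too, while the count over all genes was 1770 in place of 4323. Between the same groups 1 of 8 hepatocyte markers fell, 1 of 5 cholangiocyte markers fell (Epcam, -0.93, adjusted p = 0.0138) and 2 of 7 stellate cell markers rose, of which 1 stellate cell marker alone was called under the slide block, and their part in these differences was not tested. On the scale of the series matrix every difference at 3 hr was higher by a constant, with a median over all genes of 0.08 in place of -0.04, and the calls over all genes were 2871 higher and 1754 lower there, against 1776 higher and 2547 lower here.

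A nuclear receptor half-site, AGGTCA on either strand, lies in 3 of the 12 member promoter entries, those of Lpin1, Plin2 and 1 of 2 for Plin5, against 14% of all promoters. The 250 bases before the start are shown for the members with non-overlapping groups at 3 hr (GRCm38.p6, chr17:56117549-56117798, minus strand, and chr12:16610967-16611216, minus strand, capitals marking AGGTCA). For Plin5 the entry with the match is the one shown, and its other entry held none of the motifs searched.
Plin5: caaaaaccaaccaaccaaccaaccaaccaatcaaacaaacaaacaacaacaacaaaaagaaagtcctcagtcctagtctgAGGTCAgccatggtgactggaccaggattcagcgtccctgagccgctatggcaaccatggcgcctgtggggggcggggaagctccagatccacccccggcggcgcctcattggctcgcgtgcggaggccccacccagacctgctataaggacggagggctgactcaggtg
Lpin1: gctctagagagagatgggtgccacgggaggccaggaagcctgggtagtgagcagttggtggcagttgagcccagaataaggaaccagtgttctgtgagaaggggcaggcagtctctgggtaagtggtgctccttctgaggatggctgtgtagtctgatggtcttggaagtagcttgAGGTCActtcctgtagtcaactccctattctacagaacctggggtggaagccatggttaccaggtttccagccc

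At 24 hr Cideb rose, and Cidec and Plin2 fell. Cideb was higher with BW245C than with vehicle, 1.77-fold (log2 0.82 ± 0.13, adjusted p = 0.00012), with every BW245C liver above every vehicle liver and log2 differences of 0.69 under the slide block and 0.60 within slide 4. Its second probe differed by 0.85. Cidec was 3.54-fold lower (log2 -1.82 ± 0.53, adjusted p = 0.0141), with log2 differences of -2.16 with the block and -2.19 within slide 4. Its vehicle livers were widely spread, with replicates 4 and 5 highest, and 3 of 5 BW245C livers lay below every vehicle liver. The second Cidec probe differed by -0.81. The Cidec call was lost without ConA + vehicle replicate 4 (-1.37, adjusted p = 0.056) and when only the groups compared were fitted (adjusted p = 0.0675), within a range of 0.00179 to 0.0675 over 21 alternatives. Plin2 was 1.44-fold lower (log2 -0.53 ± 0.17, adjusted p = 0.021), with 4 of 5 BW245C livers below every vehicle liver and log2 differences of -0.66 with the block and -0.71 within slide 4. This call was lost without ConA + vehicle replicate 4 (adjusted p = 0.0737) or 5 (0.051) and without ConA + BW245C replicate 2 (0.0556), and its adjusted p over 21 alternatives was 0.00253 to 0.0737. The vehicle mice with the highest Plin2, replicates 4 and 5, also had the highest Cidec.

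The neutrophil markers differed between the same groups. Their summed signal over 6 measured genes of 7, in units of the array's 75th percentile, was 131 to 208 in ConA + BW245C livers and 259 to 389 in ConA + vehicle livers at 24 hr, and 4 of the 6 fell, while 3 of 8 hepatocyte markers and 5 of 7 stellate cell markers rose. The neutrophil sums include Csf3r, the brightest of the 6 in untreated livers (mean log2 6.89) and with BW245C (6.62). Csf3r was 6.80 with vehicle and was not called between the 24 hr groups (-0.17 ± 0.09, adjusted p = 0.134). The part of these cells in the Cidec, Plin2 and Cideb differences was not tested. G0s2 differed by 0.28 ± 0.28 at 24 hr (95% interval -0.30 to 0.87, adjusted p = 0.484), and by -0.13 within slide 4. Of the remaining members Plin5 had 0.36 ± 0.19 (adjusted p = 0.171), Lpin1 0.30 ± 0.33, Pnpla5 0.19 ± 0.43, Plin4 -0.32 ± 0.33, Pnpla2 -0.15 ± 0.11 and Pnpla3 -0.04 ± 0.45, and none was called, although Plin5 was called without ConA + vehicle replicate 5 (0.50, adjusted p = 0.0462). The 3 calls of 10 members, 1 higher and 2 lower, compare with 26.6% of all genes, 17.6% higher and 8.95% lower, so the share is near that of all genes. On the series matrix scale the median over all genes was -0.10 in place of 0.01, and 1957 genes were higher and 2615 lower, against 2661 higher and 1352 lower here.

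**Figure D2:**
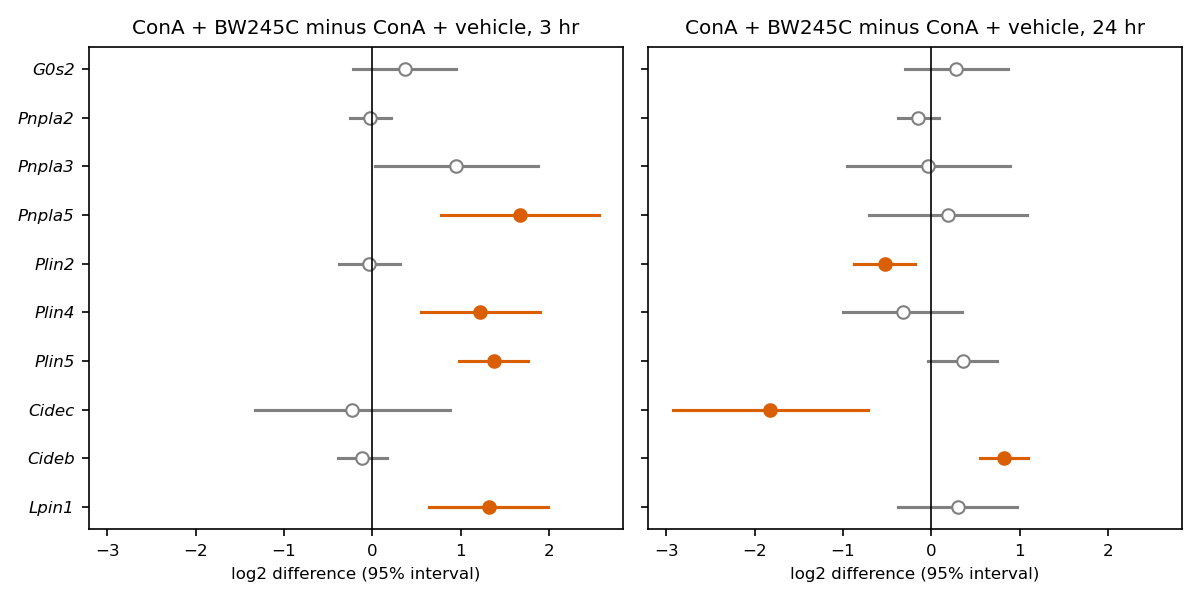
Log2 difference between ConA + BW245C and ConA + vehicle livers for the 10 genes at 3 hr (left) and 24 hr (right), with 95% intervals from limma and 5 mice in each group. Filled points passed an adjusted p under 0.05, which were Pnpla5 (on signals mostly near background), Plin4, Plin5 and Lpin1 at 3 hr and Plin2, Cidec and Cideb at 24 hr, and the intervals of G0s2 span 0 at both times.

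The difference between the agonist effects at 24 hr and 3 hr was itself tested. It was called for Plin5 (-1.02 ± 0.27, adjusted p = 0.0081), for Plin4 (-1.54 ± 0.46, adjusted p = 0.0166) and for Cideb (0.94 ± 0.19, adjusted p = 0.00143). Under the slide block Plin5 had -1.39 (adjusted p = 0.0233) and Plin4 -2.05 (adjusted p = 0.0438), but Cideb had 0.52 and was not called (adjusted p = 0.127). Lpin1 had -1.02 ± 0.46 (adjusted p = 0.0935), and was called with the block (-1.65, adjusted p = 0.0391). The effects on Cidec (-1.60 ± 0.76, adjusted p = 0.11), Plin2 (-0.50 ± 0.23, adjusted p = 0.109) and Pnpla5 (-1.48 ± 0.61, adjusted p = 0.0682) were not shown to differ between the times, although each was called at one time only. Plin2 was called after normexp (-0.58), quantile normalization (-0.73) and in the series matrix (-0.72), and Pnpla5 in the series matrix (-1.71). For G0s2 the difference was -0.08 ± 0.40 (adjusted p = 0.89). The 3 calls of 10 compare with 30.0% of all genes, which is the same share. The median over all genes was 0.10, and -0.12 on the series matrix scale, where 1435 genes were higher and 3052 lower, against 2908 higher and 1630 lower here.

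The genes whose pattern was most like that of G0s2 were ranked by the root mean square difference of their log2 values over 25 arrays, each taken relative to its untreated mean. Sox18, an endothelial transcription factor, was nearest at 0.57, before Ccnf, a cyclin, at 0.90, Cbx2, a Polycomb subunit, at 1.00, Chst13, a sulfotransferase, at 1.03, Sall2, a zinc finger factor, at 1.14 and Fgf21, a liver hormone of fasting, at 1.22. The median over all other genes was 3.81. At 3 hr Sox18, Sall2 and Fgf21 were well above background on none of the 10 arrays and Cbx2 on 1, so their 3 hr differences from untreated livers are not given as measured sizes. At 24 hr Sox18 differed by -0.31 with BW245C and -1.01 with vehicle, and Fgf21 by 0.57 and 0.25. Over all 25 arrays these 6 genes were well above background on 15 to 23, so the order of likeness rests in part on background signals. The genes nearest to Pnpla3 were the lipogenic enzyme genes Me1 (0.78) and Acss2 (0.82) and Gngt1 (0.87), against a median of 3.33. For Plin2, which varied little, they were Gemin7 (0.22), Mob1a (0.23) and Papola (0.23), against 0.69.

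**Figure D3:**
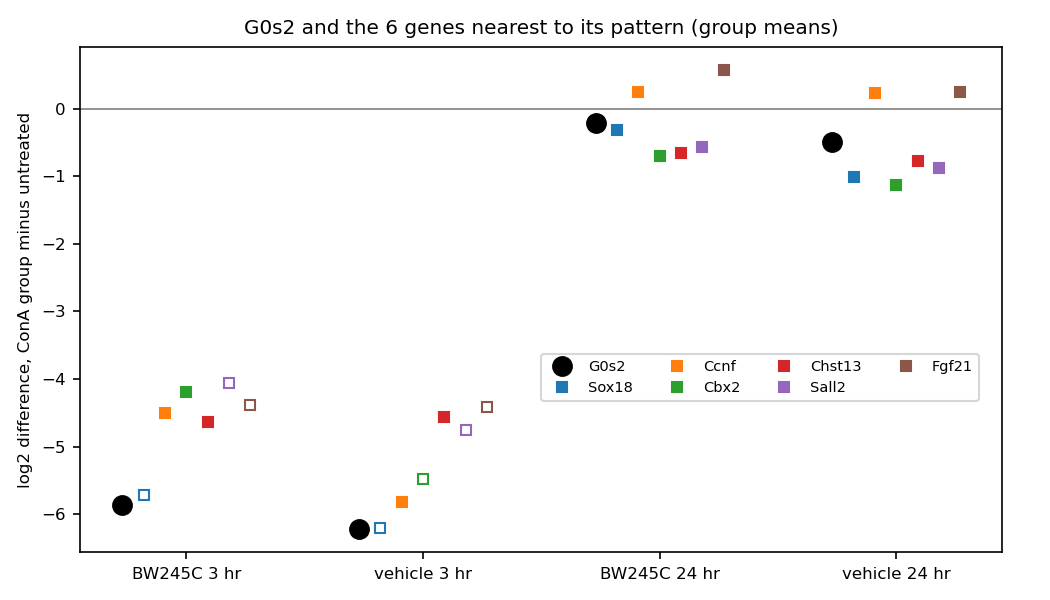
Mean log2 difference from untreated livers in the 4 ConA groups (5 mice each) for G0s2 (black circles) and the 6 genes nearest to its pattern over 25 arrays (squares, open where the gene was well above background on no array of the group). All 7 lie between -6.22 and -4.05 at 3 hr and between -1.13 and 0.57 at 24 hr. They were ranked on these values, and open squares at 3 hr are background signals.

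Other genes of fat metabolism were counted in 6 lists, none holding a member. The lists were written from general knowledge, but with earlier results of these data known. The cell type markers given beside G0s2 moved in the same 3 hr contrast. In ConA + vehicle livers at 3 hr, where 25% of all genes rose and 37.0% fell against untreated livers, 2 of 16 triglyceride synthesis genes rose and 8 fell, with a median log2 difference of -0.41 against -0.09 over all genes. Gpam, the first acyltransferase of the pathway, fell 7.15-fold (log2 -2.84 ± 0.29, adjusted p = 1.34e-08), its relative Gpat2 3.54-fold and Mogat2, a monoacylglycerol acyltransferase, 2.97-fold. Of 13 measured genes of droplet coat and biogenesis 2 rose and 7 fell (median -0.38). Acsl3, an acyl-CoA synthetase of growing droplets, fell 6.98-fold (adjusted p = 6.87e-12), while Spg20 rose 2.18-fold and Fitm1, a droplet budding protein, fell 2.03-fold but was not called under the slide block (adjusted p = 0.141). Among 14 transcriptional regulators 2 rose and 10 fell (median -0.88). Klf15, a fasting-induced factor, fell 7.96-fold, Ppargc1b, a co-activator of lipid genes, 4.65-fold, and Cebpb, an acute phase factor, rose 5.61-fold.

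Of 15 lipases and their regulators 2 rose and 4 fell at 3 hr (median -0.21). Besides Hilpda, these included Pnpla6, a phospholipase, which fell 3.23-fold, and the lipase Ddhd2, which fell 1.57-fold. Of 14 targets of PPAR alpha, the fatty acid receptor that drives fat oxidation, 3 rose and 4 fell (median 0.18). Fgf21 was at least 6.18-fold lower (adjusted p = 4.14e-12), Pdk4, a kinase that spares glucose, fell 1.80-fold, and Cpt1a, which admits fatty acids to mitochondria, rose 1.82-fold. Of 7 genes of lipoprotein assembly 1 rose and 4 fell, with Apob, the lipoprotein scaffold, 1.51-fold higher and Apoa4 1.69-fold and Mttp, the transfer protein, 1.45-fold lower.

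At 24 hr after ConA with vehicle, where 29.8% of all genes rose and 39.1% fell, most genes of these lists were lower than in untreated livers. In the same contrast 7 of 8 hepatocyte markers fell and 1 rose (median -0.44). Under the slide block, where Trf was left out of the count, 4 of 7 hepatocyte markers were lower. Without the block 6 of 7 Kupffer cell markers fell (median -2.24), 4 of 7 stellate cell markers fell (median -0.64) and 5 of 6 neutrophil markers rose (median 6.74). Of the others, 2 of 5 cholangiocyte and 2 of 3 adipocyte markers rose, and the part of these cells in the list values was not tested. Of the lipolysis list 2 of 15 rose and 12 fell, with a median of -2.03 against -0.08 over all genes. Ces1f and Ces1g, carboxylesterases of the liver, fell 33.4-fold (log2 -5.06 ± 0.33, adjusted p = 5.93e-12) and 13.5-fold. Of the triglyceride synthesis list 4 rose and 10 fell (median -0.98), led by Gpam (9.12-fold), Gpat2 (7.85-fold) and the acyl-CoA synthetase Acsl1 (5.57-fold), all lower. Of the droplet list 2 rose and 8 fell (median -0.44). Fitm1 fell 12.8-fold and Hsd17b11, a droplet enzyme, 3.48-fold, while Cidea, the CIDE gene of brown fat, was at least 4.42-fold higher (adjusted p = 3.65e-06) and well above background on no untreated array. Of 14 regulators 1 rose and 12 fell (median -1.14), with Srebf1, the main factor of lipogenesis, lower by a log2 difference of -3.58 ± 0.32, Insig1 5.15-fold lower and Mlxipl, the glucose-sensing factor, 4.45-fold lower. Of 14 PPAR alpha targets 1 rose and 11 fell (median -1.27), led by Cyp4a10 (7.47-fold), Acot1 (5.50-fold) and Ehhadh (4.14-fold). Of 7 lipoprotein genes 2 rose and 5 fell, with Sar1b 3.11-fold, Apoc3 2.43-fold and Apob 2.06-fold lower. On the series matrix scale, where all differences at 24 hr were higher by 0.34, the 6 medians stayed below 0, but 7249 of all genes were higher and 3783 lower, against 4495 higher and 5911 lower here. At 3 hr the split there was 3098 higher and 6785 lower, against 3771 and 5596. All 18 genes named at 24 hr were also called with the slide as a block, and 17 of 18 at 3 hr.

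With BW245C at 3 hr Pdk4, Angptl4 and Insig2 were among the genes that rose. Pdk4 was 4.45-fold higher than with vehicle (log2 2.15 ± 0.31, adjusted p = 4.26e-05), Angptl4, a lipase inhibitor secreted in fasting, 2.32-fold (log2 1.21 ± 0.29, adjusted p = 0.00386) and Insig2, a brake on lipogenesis induced by fasting, 2.63-fold (log2 1.40 ± 0.15, adjusted p = 1.57e-06). Lpin2, a relative of Lpin1, was 1.56-fold higher (adjusted p = 0.0261), and Cebpa, a hepatocyte factor, 1.80-fold lower (adjusted p = 0.000143). These 5 were called under the slide block too, with log2 differences of 2.63 for Pdk4, 1.53 for Angptl4, 1.55 for Insig2, 0.97 for Lpin2 and -0.79 for Cebpa. Ppargc1b was 2.45-fold higher (adjusted p = 0.00762), and 1.22 on the log2 scale but not called with the block (adjusted p = 0.0943). By list, where 11.8% of all genes rose and 16.9% fell, 2 of 15 lipolysis genes (Lipe and Lipc), 2 of 13 droplet genes (Spg20 and Rab18) and 1 of 7 lipoprotein genes (Apob) were called, all lower. Of 16 triglyceride synthesis genes 4 rose and 1 fell, of 14 regulators 3 rose and 2 fell, and of 14 PPAR alpha targets 2 rose and 1 fell. Of the named genes the 3 hr calls of Lipe, Lipc, Mogat1, Gpat3, Spg20, Rab18, Apob and Acadm were lost with the block, and all 14 kept their direction.

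At 24 hr the median difference between BW245C and vehicle was 0.32 to 0.45 in the 6 lists, against 0.01 over all genes, and was above 0 in each on the series matrix scale too. Of all genes 17.6% rose and 8.95% fell. In the same contrast 3 of 8 hepatocyte markers (median 0.21) and 5 of 7 stellate cell markers (median 0.76) rose, and 4 of 6 neutrophil markers fell. Under the slide block 2 of 7 hepatocyte markers (Trf was left out of the count) and 4 stellate cell markers rose. With the block 1 hepatocyte, 4 neutrophil and 2 cholangiocyte markers fell. The part of these cells in the list values was not tested. In the droplet list 7 of 13 rose and 1 fell (median 0.35), with Fitm1 2.91-fold higher (adjusted p = 0.000978), Hsd17b11 1.68-fold higher and Cidea 2.26-fold lower (adjusted p = 0.0181). In the lipolysis list 6 of 15 rose and 2 fell (median 0.34). Ces1f was 5.09-fold higher (log2 2.35 ± 0.33, adjusted p = 3.57e-05) and Ces1g 4.03-fold higher (adjusted p = 8.15e-06). Hilpda fell (log2 -2.0 ± 0.37, adjusted p = 0.000417), with -2.22 under the slide block and -2.20 within slide 4. Abhd5 fell by 0.43 ± 0.09 on the log2 scale (adjusted p = 0.00103). Of 16 triglyceride synthesis genes 6 rose and 1 fell, with Acsl1 2.20-fold and Gpat2 1.68-fold higher and Agpat5 1.47-fold lower. Of 14 regulators 5 rose, among them Srebf1 2.02-fold (adjusted p = 0.024), Insig1 1.96-fold and Pparg 1.49-fold. Of 14 PPAR alpha targets 3 rose and 1 fell. Pdk4 was 3.24-fold lower (log2 -1.69 ± 0.31, adjusted p = 0.000428), opposite to its 3 hr difference, while Acadm was 1.49-fold higher. Of 7 lipoprotein genes 2 rose, Sar1b and Apoc3. The 16 genes named here by the rule for lists were all called under the slide block.

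**Figure D4:**
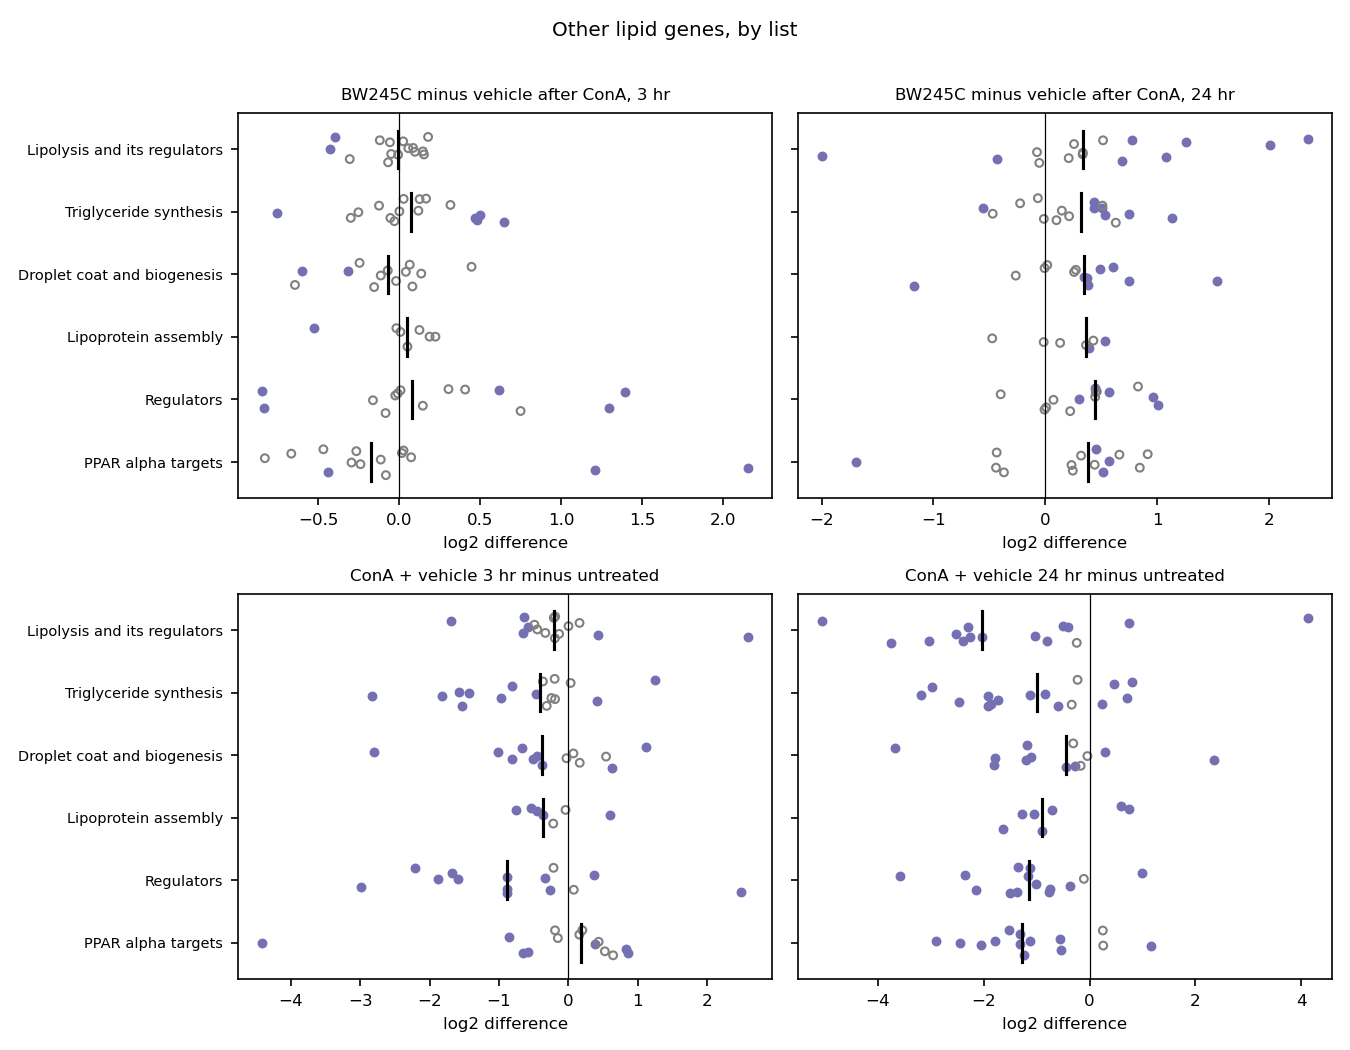
Log2 differences of the genes of 6 lipid lists, with 1 point per gene, filled where the adjusted p was under 0.05, and a bar at each list's median, for BW245C minus vehicle at 3 and 24 hr (top) and ConA + vehicle minus untreated at 3 and 24 hr (bottom). The horizontal scales differ between panels. At 24 hr the list medians lie between 0.32 and 0.45 for BW245C minus vehicle and between -2.03 and -0.44 for ConA + vehicle minus untreated.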

How the data were processed

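Liver RNA of 25 mice was hybridised to single-colour Agilent arrays, with 0.5 ug of RNA labelled per the labels' protocols. The deposited scanner files hold the spot intensities that the authors obtained with Agilent Feature Extraction, version 10.7.3.1 per the file headers and 9.1 per the submitters' processing notes. The intensity used is the processed signal, which per the file headers is background-subtracted. The series matrix holds the same signals, multiplied by the authors by 1 factor for each array whose rule is not given in the sources used here. It was used as an alternative only.

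The log2 of the deposited intensities was taken relative to each array's 75th percentile in Python 3.11.15, with numpy 2.4.6 and pandas 2.3.3. Of 55681 probes, 26582 were named through their RefSeq accession in a RefSeq gene table and 29099 were not. Probes well above background on at least 5 arrays were kept, and the brightest probe stood for a gene, which left 15104 genes. Selection of probes and fitting were done in R 4.3.3 with the data.table package, version 1.17.8. limma 3.58.1 was fitted with 1 mean per group over all 25 arrays, and p-values were Benjamini-Hochberg adjusted over all genes. The fit was tested on simulated data. The same Python tools were used for summaries, and matplotlib 3.10.9 for figures. No member spot was flagged as an outlier and no spot was saturated.

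The members and the gene lists were chosen with earlier results of these data known. All 10 members are named, and from each list up to 3 called genes with the largest differences in a comparison, except 1 result that is not reported here. Labels give each mouse as a separate sample. Same-numbered arrays of different groups did not deviate together (median correlation -0.0136 over 50 pairs, and 4 of 25 arrays correlated best with their own number), so the numbers do not pair the mice. Promoters came from a RefSeq table of build GRCm38.p6, with the 250 bases before the start used, while the array headers name build mm9.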

Additional observations from a re-analysis of the deposited data

Results flagged for a closer look

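Of 50 groups of 5 values (10 members in 5 groups), 4 had an end value whose gap to the nearest mouse, divided by the range of the group, exceeded Dixon's critical value of 0.71, and chance alone flags about 1 group in 20. G0s2 in untreated replicate 5 was low at 2.22, with a ratio of 0.746. Pnpla2 in untreated replicate 1 was high at 3.69, with a ratio of 0.868, and in ConA + BW245C replicate 5 at 24 hr it was high at 3.47, with a ratio of 0.719. Pnpla5 in ConA + vehicle replicate 3 at 3 hr was high at -5.21, with a ratio of 0.715, although no array of that group was well above background for this probe.

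The effect of BW245C differed between 24 hr and 3 hr, by the interaction in limma, for Plin4 (log2 -1.54), Plin5 (log2 -1.02) and Cideb (log2 0.94). Plin4 and Plin5, which are neighbours on chromosome 17, were higher with BW245C than with vehicle at 3 hr, and Cideb was higher at 24 hr. The Cideb difference was not called under the slide block.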

How the results depend on the processing

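Among the 10 members, 4 calls at 3 hr and 3 at 24 hr were recomputed under other normalizations, filters, probe rules, slide terms and with each mouse left out. No called member difference changed its sign in any alternative run. The sign did change for uncalled log2 differences. For BW245C minus vehicle at 3 hr, Pnpla2 (-0.02) was 0.074 with normexp, 0.070 with quantile normalization, 0.093 in the series matrix and 0.028 with a fixed slide block, and -0.079 to 0.040 with single mice left out. Plin2 (-0.03) was 0.0028 with normexp, 0.089 with quantile, 0.082 in the series matrix, 0.17 with a fixed and 0.074 with a random slide block, and -0.16 to 0.085 with mice left out. Cidec (-0.23) was 0.34 and 0.078 with the fixed and random block, and -0.51 to 0.081 with mice left out. Cideb (-0.11) was 0.012 with quantile, 0.0017 in the series matrix, and 0.17 and 0.029 with the fixed and random block. At 24 hr Pnpla3 (-0.04) was 0.032 with normexp, 0.076 with quantile, 0.29 with the mean of its probes, and -0.16 to 0.17 with mice left out. Within slide 4 at 24 hr G0s2 (0.28) was -0.13 and Lpin1 (0.30) was -0.046. The G0s2 difference between the agonist effects (-0.08) was 0.095 with normexp, 0.043 with quantile, and -0.29 to 0.14 with mice left out. G0s2 against untreated livers was -4.73 with normexp at 3 hr (main -6.22), and -0.15 in the series matrix and 0.018 with the fixed block at 24 hr (main -0.49), all with vehicle. Between 24 and 3 hr with vehicle (main 5.73) it was 4.47, 6.18 and 6.14 in these settings. Over all genes, 4323 were called at 3 hr, against 1770 with the fixed block, 2650 with the random block and 2190 with only the groups compared, and 4538 interaction calls became 928 and 2107 with the fixed and random block. Of the 10 members, 3 interaction calls became 5 with normexp and 6 in the series matrix, and 3 to 5 with mice left out. Over all 15104 genes the interaction calls were 3913 with normexp, 4487 in the series matrix and 3254 to 5357 with mice left out. Member calls at 24 hr ranged from 1 to 3, the lowest without ConA + vehicle replicate 4. Calls over all genes at 24 hr were 2922 to 4342 with mice left out. Treating the replicate number as a block left all 98 results within the limits set for no change. Tested member differences kept their sign and call, and untested ones moved by less than the SD of their groups. Counts of called genes changed little, with 4106 in place of 4323 for BW245C minus vehicle at 3 hr. The cause of these shifts was not tested. Pnpla5, near background in most ConA livers, lost its 3 hr call with normexp (0.28 in place of 1.67).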
